A study of Mus musculus with 8 samples.

Results

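The genes described here are those of the proteasome: every mouse gene whose symbol starts with Psma, Psmb, Psmc or Psmd followed by a digit, other than the immunoproteasome genes Psmb8, Psmb9 and Psmb10. The rule found 37 of the 32285 genes in the count tables, and no measured value entered it. By role they are 7 subunits of the alpha ring and 7 of the beta ring of the 20S core, 2 core subunits restricted to other tissues (Psma8 of testis and Psmb11 of thymus), 6 ATPases and 11 other subunits of the 19S regulatory particle, and 3 chaperones that help to assemble that particle (Psmd5, Psmd9 and Psmd10). The last, Psmc3ip, was matched by its symbol alone and is a cofactor of meiotic recombination, not a subunit. Psma8 (17 UMIs in all, at most 5 in a sample) and Psmb11 (8 UMIs, at most 2 in a sample) fell under the filter on low counts, so 35 of the 37 genes were tested. A UMI is a molecular tag that marks 1 captured RNA molecule.

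The proteasome is the main protease of the cytosol and nucleus. Proteins tagged with ubiquitin are bound, deubiquitinated and unfolded by the 19S particle and threaded into the 20S core, where the beta subunits Psmb5, Psmb6 and Psmb7 cut them. In lymphocytes part of the cores carry Psmb8, Psmb9 and Psmb10 in place of these catalytic subunits, which makes the immunoproteasome, known for the peptides it supplies to MHC class I and for its induction by interferon gamma. Transcription of the standard subunits is known to be raised together by Nfe2l1, a factor that is held in the endoplasmic reticulum, processed by Ngly1 and Ddi2, and bound to antioxidant response elements when proteasome activity is short.

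The RNA came from activated mouse CD8 T cells of 3 donor mice that were kept together with bone marrow stroma cells (BMSCs) carrying a stable dsRed label in their mitochondria. T cells positive for dsRed (MitoPositive) and those negative for it (MitoNegative) were separated by flow cytometry. Each arm was read from the culture on day 0, and on day 7 after transfer into B6 mice bearing B16KVP tumors, from which T cells were re-isolated from tumor and spleen. The 6 groups of 3 samples, 1 per donor, are thus MitoPositive and MitoNegative cells from the tumor on day 7, MitoPositive and MitoNegative cells from the spleen on day 7, and MitoPositive and MitoNegative cells from the culture. All of them are activated T cells that had been in contact with the labelled BMSCs, and none was kept without BMSCs. On day 7 the arm names give the state at transfer, not at re-isolation. By the deposited hashtag list, the tumor and spleen samples of an arm and donor came from the same recipients, and the 2 arms of a donor from different recipients. Age, strain and genotype of the donor mice are not given in the labels.

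Samples were told apart by antibody hashtags in 4 droplet libraries, 1 for day 0 and 1 per donor on day 7, and UMIs were summed over the cells of a sample. Of 18092 barcodes 16376 cells were used, a sample holding 30 to 3423 of them and a sum of 323344 to 26592848 UMIs, and 22 of the kept barcodes occurred in more than 1 library. A median cell held 10067 to 21894 UMIs in the tumor samples, 5294 to 7318 in those of the spleen and 5875 to 8599 in those of the culture. Cd8a was present at 254 to 352 CPM (counts per 1000000 UMIs of the sample) in tumor samples, in spleen samples at 354 to 437 and in culture samples at 458 to 547, while Cd4 was at no more than 15.6 CPM in any sample. A kept day 7 cluster of 76 cells held 397 CPM of CD4 T cell markers, with Cd4 among its leading genes. Kept cluster 7 of day 7, with 534 cells, held 1463 CPM of myeloid markers. Kept cluster 10, with 177 cells, held 4158 CPM of melanoma, 672 CPM of myeloid and 474 CPM of B cell markers. In cluster 10, 63.8% of the cells had a UMI of Cd3d, Cd3e or Cd3g. A few samples stood apart. The MitoNegative tumor sample of donor 1 held 30 cells, the MitoNegative tumor sample of donor 3 carried 1430 CPM of 6 melanoma genes against at most 134 elsewhere, and the MitoPositive spleen sample of donor 3 held 49 cells and 789 CPM of 8 myeloid genes against 97 to 196 in the other spleen samples. Calls that rest on these samples were also counted without their donors.

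Promoter sequences are shown for the catalytic genes Psmb5 and Psmb6, which were among the most variable proteasome genes over the 18 samples, and for the ubiquitin receptor Psmd4 and the deubiquitinase Psmd14, which moved less. Each is the run of 160 bases before the annotated start on the coding strand, which reads as the RNA does, from the RefSeq table of GRCm38.p6. Capitals mark matches to the motifs searched: TGACNNNGC, the core of the antioxidant response element, CCAAT, which NF-Y binds, CCGGAAG, which ETS factors bind, and the motif of nuclear respiratory factor 1, by its consensus. Each was searched on both strands, and none of the matches in the 4 runs overlap.
Psmb5, chr14:54617996-54618155, minus strand: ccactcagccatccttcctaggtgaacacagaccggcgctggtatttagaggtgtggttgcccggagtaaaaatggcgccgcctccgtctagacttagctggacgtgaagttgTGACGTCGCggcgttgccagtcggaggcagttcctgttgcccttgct
Psmb6, chr11:70525197-70525356, plus strand: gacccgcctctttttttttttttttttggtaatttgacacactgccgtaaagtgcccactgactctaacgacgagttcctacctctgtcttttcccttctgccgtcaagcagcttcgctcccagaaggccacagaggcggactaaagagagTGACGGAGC
Psmd4, chr3:95042615-95042774, minus strand: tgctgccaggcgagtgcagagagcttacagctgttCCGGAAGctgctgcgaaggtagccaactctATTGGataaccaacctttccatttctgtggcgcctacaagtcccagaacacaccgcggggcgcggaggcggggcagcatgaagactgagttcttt
Psmd14, chr2:61711534-61711693, plus strand: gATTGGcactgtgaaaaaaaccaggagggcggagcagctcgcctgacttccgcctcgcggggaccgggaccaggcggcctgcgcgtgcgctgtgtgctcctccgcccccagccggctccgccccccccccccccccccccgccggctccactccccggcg
The antioxidant response element core begins 47 bases before the start in Psmb5 and 9 bases before it in Psmb6. In Psmd4 an ETS match begins 125 bases before the start, and Psmd4 and Psmd14 each hold 1 CCAAT match in the printed stretch, read on the opposite strand. The table held 30 of the 37 genes, and the remaining catalytic gene, Psmb7, was not among them. In windows of 300 bases, 250 before the start and 50 from it on, the antioxidant response element core was in 5 of the 30 (Psmb5, Psmb6, Psmc6, Psmd9 and Psmd12) and in 14% of all genes of the table. It was absent from the window of Psmc5, the subunit gene that varied most over the samples. Psmc6, which holds the core, varied less than the median proteasome gene. CCAAT was in 13 of the 30 and in 41.1% of all genes, CCGGAAG in 11 of the 30 and in 9.93%, and the motif of nuclear respiratory factor 1 in 1 of the 30 (Psma2) and in 1.07%. A match is a string of letters and not a measured binding site.

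Proteasome RNA made up more of the RNA of T cells from the tumor than of those from the spleen or the culture. Summed over the 37 genes, MitoPositive cells from the tumor held 6138, 6518 and 5833 CPM (not TMM-scaled in these sums) in donors 1, 2 and 3, the order in which all values per sample are given. MitoNegative cells from the tumor held 6554, 6389 and 6626. MitoPositive cells from the spleen held 4246, 4221 and 4256. All tumor samples lay above all spleen samples, and the 3 MitoPositive spleen samples lay close together. MitoNegative cells from the spleen were spread wider, at 5726, 5068 and 4394, and donor 1 was the highest of them. In the culture MitoPositive cells held 3327, 3489 and 3708, and MitoNegative cells held 3160, 3370 and 3279. Every culture sample was below every spleen sample. As a share of all UMIs, the mean was 0.616% in MitoPositive and 0.652% in MitoNegative cells of the tumor, 0.424% and 0.506% of the spleen, and 0.351% and 0.327% of the culture.

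Group means of the core and of the regulatory particle followed the same order of compartments, though in the core sum the highest MitoNegative spleen sample, donor 1's, lay above the lowest tumor sample. The 14 genes of the 20S core summed to 3855 ± 354 CPM in MitoPositive tumor samples and 4069 ± 140 CPM in MitoNegative ones (SD over the 3 donors, as throughout). They summed to 2683 ± 29.6 in MitoPositive and 3237 ± 481 in MitoNegative spleen samples, and to 2107 ± 138 and 1939 ± 81.3 in the same arms of the culture. The 17 genes of the 19S particle summed to 2169 ± 45.1 CPM in MitoPositive and 2310 ± 232 CPM in MitoNegative tumor samples. For the spleen the 19S sum of MitoPositive samples was 1452 ± 45.4 CPM and that of MitoNegative samples 1706 ± 198 CPM, and for the culture 1298 ± 49.6 CPM and 1227 ± 27.9 CPM in the same arms. Cells of the tumor also held more UMIs in all, and per cell the values were 99.4 ± 8.60 proteasome UMIs in a MitoPositive tumor cell against 26.1 ± 2.29 in a MitoPositive spleen cell.

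**Figure D1:**
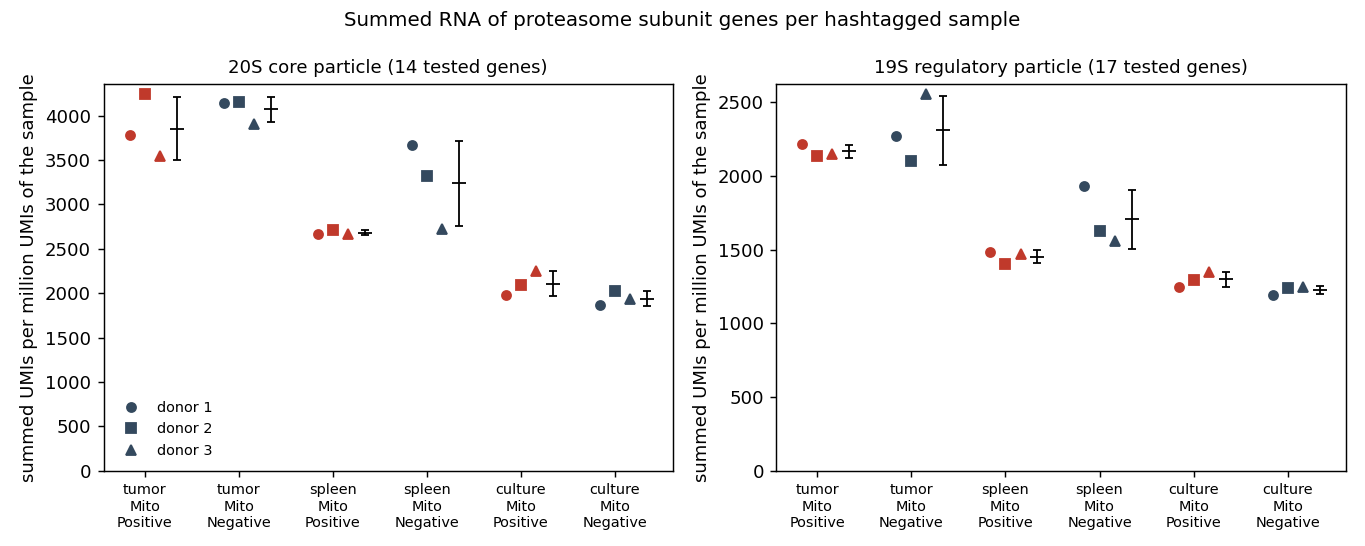
Summed CPM of the 14 genes of the 20S core (left) and the 17 genes of the 19S particle (right) in each of the 18 samples. Points are donors 1 to 3, bars are mean ± SD. Culture samples are lowest in both panels, tumor samples are all above spleen samples in the 19S panel, and the MitoNegative spleen samples, the most spread group of the 20S panel, reach into the tumor samples there.

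Genes differed in how far they moved over the 18 samples. The SD of the log2 level was lowest for Psmd4 (0.20), Psmd5 (0.20), the beta ring subunit Psmb1 (0.21) and Psmd10 (0.34), against a median of 0.56 over the 35 genes. It was highest for Psmc3ip (1.11), the ATPase Psmc5 (0.78), Psmb6 (0.78), Psmb5 (0.77) and Psmb7 (0.74), so all 3 constitutive catalytic genes were among the most variable. In the median gene the highest sample stood 3.08-fold above the lowest.

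The comparison of tumor with spleen asks how the same transferred cells differ between the 2 sites. In MitoPositive cells 33 of 35 proteasome genes rose in the tumor and none fell, at an adjusted p under 0.05 in edgeR's quasi-likelihood test over 11992 genes, of which 53.2% were called and 26.7% were called higher. The median log2 fold change over the 35 genes was 0.74, against -0.02 over all genes tested. In MitoNegative cells 26 of the 35 rose and none fell, where 42.5% of all genes were called and 19.7% called higher, with medians of 0.51 and -0.08. The called genes shared by both arms numbered 26, so each gene that rose in MitoNegative cells also rose in MitoPositive cells. Those called in MitoPositive cells alone were Psma1, Psmb1, Psmb3, Psmc3ip, Psmd4, Psmd13 and Psmd14, and the test of the difference between the arms, given further on, called none of them. On simulated data that test called 26% of 2-fold changes.

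All 3 catalytic genes of the constitutive core rose in both arms. Psmb5, which carries the chymotrypsin-like activity, stood at 279.9, 329.7 and 233 CPM (scaled by the TMM method, as are all levels of single genes) in MitoPositive tumor samples, against 186, 197 and 159.7 CPM in MitoPositive spleen samples. MitoNegative cells held it at 287, 285 and 240.5 CPM in the tumor, against 254, 231 and 149 CPM in the spleen. The groups did not overlap in the MitoPositive arm, and overlapped in the MitoNegative arm, where donor 1's spleen sample lay above donor 3's tumor sample. The log2 fold changes were 0.61 ± 0.13 (SE, as for all fold changes; adjusted p = 0.00159) in MitoPositive and 0.35 ± 0.13 (adjusted p = 0.0393) in MitoNegative cells.

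Psmb6, the subunit with caspase-like activity, held 224, 285 and 207 CPM in MitoPositive tumor samples, against 128, 139 and 124 in the spleen. The MitoNegative arm held 249, 244 and 233 in the tumor, against 186, 168 and 123 in the spleen. Neither arm overlapped between the sites, and the log2 fold changes were 0.86 ± 0.14 (adjusted p = 0.00026) in MitoPositive and 0.59 ± 0.14 (adjusted p = 0.00388) in MitoNegative cells. Psmb7, the subunit with trypsin-like activity, held 164, 169 and 129 CPM in MitoPositive tumor samples against 69.9, 74.0 and 106 in the spleen. In MitoNegative cells Psmb7 held 190.4, 174 and 152 in the tumor against 111, 93.5 and 75.8 in the spleen. Tumor samples were again all above the spleen samples of their arm, by a log2 fold change of 1.00 ± 0.17 (adjusted p = 0.000381) in MitoPositive and 0.84 ± 0.16 (adjusted p = 0.00146) in MitoNegative cells.

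In the rest of the core, all 7 alpha ring genes rose in MitoPositive cells and 6 of 7 in MitoNegative cells. Psma4 had 299, 321 and 276 CPM in MitoPositive tumor samples, against 160.4, 156 and 157 in the spleen, a log2 fold change of 0.91 ± 0.12 (adjusted p = 4.92e-05). In MitoNegative cells its log2 fold change was 0.55 ± 0.11 (adjusted p = 0.00207), and that of Psma5, another structural alpha subunit, was 0.61 ± 0.13 (adjusted p = 0.00227). Psma1, whose product takes its place in the same ring, was called in MitoPositive cells, at 0.67 ± 0.13 (adjusted p = 0.00104), and had 0.22 ± 0.13 (adjusted p = 0.203) in MitoNegative cells. Of the beta ring 7 of 7 genes rose in MitoPositive and 5 of 7 in MitoNegative cells. The beta ring genes not called in MitoNegative cells were Psmb1, a subunit with no catalytic site, at 0.03 ± 0.10 (adjusted p = 0.873), and Psmb3, another, at 0.13 ± 0.13 (adjusted p = 0.425).

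The 19S particle rose with the core. All 6 ATPases, which unfold the substrate and open the gate of the core, rose in both arms: Psmc6 by 0.98 ± 0.12 in MitoPositive cells (adjusted p = 4.99e-05) and 0.69 ± 0.12 in MitoNegative cells (adjusted p = 0.000818), and Psmc5 by 0.76 ± 0.16 (adjusted p = 0.00184) and 0.74 ± 0.16 (adjusted p = 0.00283) in the same order of arms. Of the other 19S subunits 11 of 11 rose in MitoPositive and 8 of 11 in MitoNegative cells. Psmd1, the large scaffold of the particle's base, had 120.0, 128 and 132 CPM in MitoPositive tumor samples, against 54.8, 55.2 and 71.0 in the spleen. MitoNegative cells had it at 103, 141 and 158 CPM in the tumor, against 74.5, 63.4 and 58.0 in the spleen. The sites did not overlap in either arm, and Psmd1 had the largest log2 fold change of the subunits, 1.11 ± 0.16 (adjusted p = 0.000115) in MitoPositive and 1.03 ± 0.16 (adjusted p = 0.000272) in MitoNegative cells. The lid subunits Psmd12, Psmd7 and Psmd3, which form the frame around the deubiquitinase, had 1.02 ± 0.15, 0.94 ± 0.17 and 0.91 ± 0.13 in MitoPositive cells (adjusted p = 0.000178, 0.000499 and 0.000144). In MitoNegative cells the log2 fold changes of Psmd12, Psmd7 and Psmd3 were 0.78 ± 0.16, 0.75 ± 0.16 and 0.65 ± 0.14 (adjusted p = 0.00173, 0.00305 and 0.00266). Psmd2, the other scaffold of the base, had 0.67 ± 0.11 (adjusted p = 0.000461) in MitoNegative cells.

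The ubiquitin receptor and the deubiquitinase moved less. Psmd4, which binds ubiquitin chains, held 174, 159.8 and 166 CPM in MitoPositive tumor samples, against 145, 127 and 121 in the spleen. MitoNegative cells held 186, 166 and 186 CPM in the tumor, against 172, 140.1 and 128 in the spleen. The sites did not overlap in MitoPositive cells, and the log2 fold change was 0.31 ± 0.11 (adjusted p = 0.035) there and 0.28 ± 0.11 (adjusted p = 0.0676) in MitoNegative cells. Psmd14, which removes the ubiquitin chain before the substrate enters the core, held 186, 198 and 202 CPM in MitoPositive tumor samples, against 129, 135 and 157 in the spleen. In MitoNegative cells it held 173, 202 and 197 CPM in the tumor, against 182, 151 and 152 in the spleen. Psmd14 rose by 0.48 ± 0.13 (adjusted p = 0.0066) in MitoPositive cells, and its value in MitoNegative cells was 0.21 ± 0.13 (adjusted p = 0.195).

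The chaperones of the 19S base did not move as a set. Psmd9 rose in both arms, by 0.97 ± 0.13 (adjusted p = 7.84e-05) in MitoPositive and 0.91 ± 0.14 (adjusted p = 0.000245) in MitoNegative cells. Psmd5 had log2 fold changes of 0.01 ± 0.15 (adjusted p = 0.951) and 0.02 ± 0.17 (adjusted p = 0.981), and Psmd10, also known as gankyrin, of 0.12 ± 0.16 (adjusted p = 0.533) and -0.44 ± 0.18 (adjusted p = 0.0722) in the same arms. Psmc3ip, no subunit, had 20.7, 21.8 and 19.3 CPM in MitoPositive tumor samples, against 2.56, 5.76 and 5.91 in the spleen, a log2 fold change of 2.21 ± 0.45 (adjusted p = 0.00137). MitoNegative cells had it at 19.7, 11.1 and 33.4 CPM in the tumor, against 17.3, 11.6 and 6.46 in the spleen (0.98 ± 0.44, adjusted p = 0.0942).

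**Figure D2:**
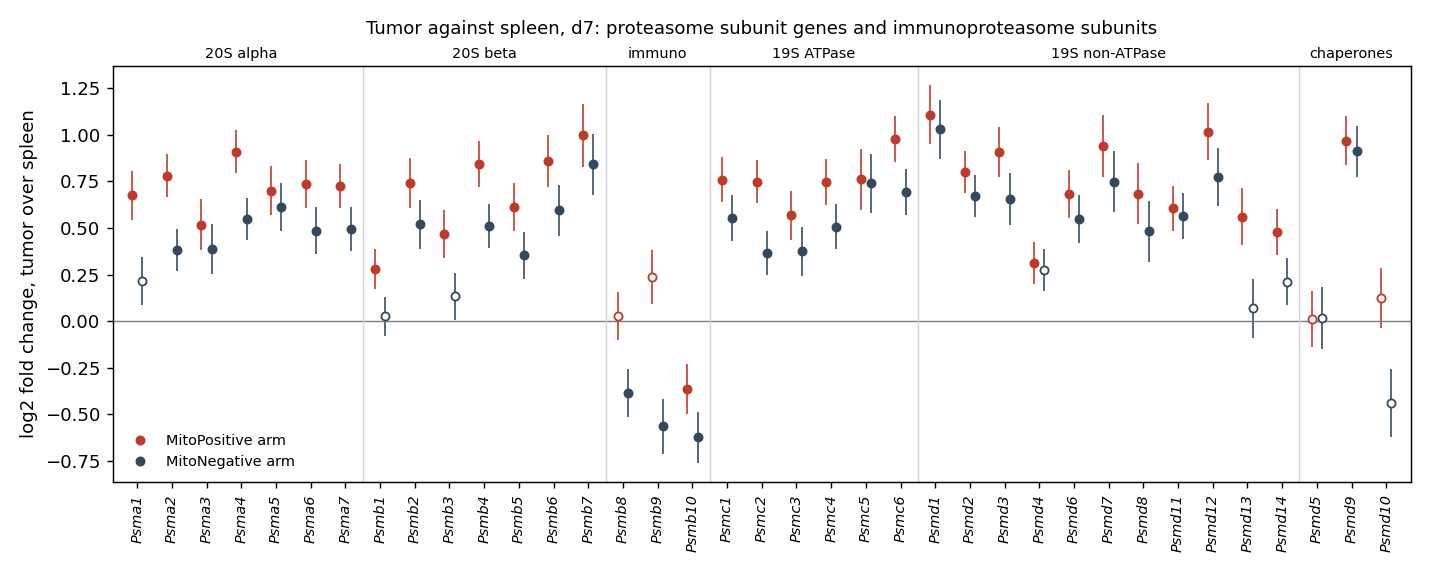
Log2 fold change of tumor over spleen (y axis, ± SE) of each tested proteasome gene and of Psmb8, Psmb9 and Psmb10, in MitoPositive and MitoNegative cells, ordered by role. Psmc3ip is left out. Filled points have an adjusted p under 0.05, and all filled points of core and 19S genes lie above 0, while those of the immunoproteasome lie below it.

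Thinned to 3000 UMIs a cell, which leaves out shallower cells, 29 genes were called in MitoPositive (44% of all genes) and 11 in MitoNegative cells (23%), all higher in the tumor. Clusters were called cycling where the summed CPM of 20 G2/M genes was over 3 times the median of the day's clusters. They held 44.8, 70.4 and 60.4% of MitoPositive tumor cells against 2.97, 4.27 and 8.16% of MitoPositive spleen cells. In MitoNegative cells they held 36.7, 20 and 66.4% in the tumor against 29.6, 15.5 and 14.9% in the spleen. The 20 G2/M genes summed to 939, 1061 and 1180 CPM in MitoPositive and to 781, 525 and 1643 CPM in MitoNegative tumor samples. Whether the tumor cells of these clusters were dividing was not tested. Cycling cluster 2 of day 7 (1273 cells) was led by Nrgn, Gzmc and Spp1, at 1302 CPM of G2/M RNA. Clusters 3 and 8, led by cell cycle genes, had 5236 and 2610 CPM. Clusters over 10 times the median held 0, 2 and 3 MitoPositive and 0, 1 and 3 MitoNegative tumor cells. Without the cycling clusters 24 genes were called in MitoPositive (39% of all genes) and 29 in MitoNegative cells (41.9%). Without donor 3, whose samples held the melanoma and myeloid RNA, 31 (53.9%) and 20 (27.5%) were called. Without donor 1, whose MitoNegative tumor sample held 30 cells, 31 genes were called in MitoPositive (33.9%) and 27 in MitoNegative cells (31.3%).

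The 3 immunoproteasome genes did not rise with the constitutive genes they replace. Psmb8 held 694, 832 and 728 CPM in MitoPositive tumor samples, against 792, 741 and 642 in the spleen, with overlapping groups and a log2 fold change of 0.03 ± 0.13 (adjusted p = 0.873). In MitoNegative cells it held 669.5, 645 and 634 CPM in the tumor, against 1018, 872 and 635 in the spleen, and fell by 0.39 ± 0.13 on the log2 scale (adjusted p = 0.0292). Donor 3's MitoNegative spleen sample lay at the level of the tumor samples. Psmb9 had a log2 fold change of 0.24 ± 0.15 (adjusted p = 0.191) in MitoPositive cells and fell by 0.56 ± 0.15 in MitoNegative cells (adjusted p = 0.00884). Psmb10 fell in both arms, by 0.36 ± 0.13 in MitoPositive cells (adjusted p = 0.0386) and by 0.62 ± 0.14 in MitoNegative cells (adjusted p = 0.00315).

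The ratio of summed Psmb8, Psmb9 and Psmb10 CPM to summed Psmb5, Psmb6 and Psmb7 CPM, a description chosen after the values were seen and left untested, separated the compartments. It was 1.76, 1.83 and 2.18 in MitoPositive and 1.48, 1.57 and 1.64 in MitoNegative tumor samples. The spleen samples had 3.47, 3.09 and 2.83 in MitoPositive and 3.20, 3.08 and 3.17 in MitoNegative samples. The culture samples had 4.51, 4.28 and 4.21 in MitoPositive and 4.49, 4.78 and 4.65 in MitoNegative samples. No tumor sample reached a spleen sample and no spleen sample a culture sample. The values are of RNA and say nothing of which subunits sat in assembled cores.

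**Figure D3:**
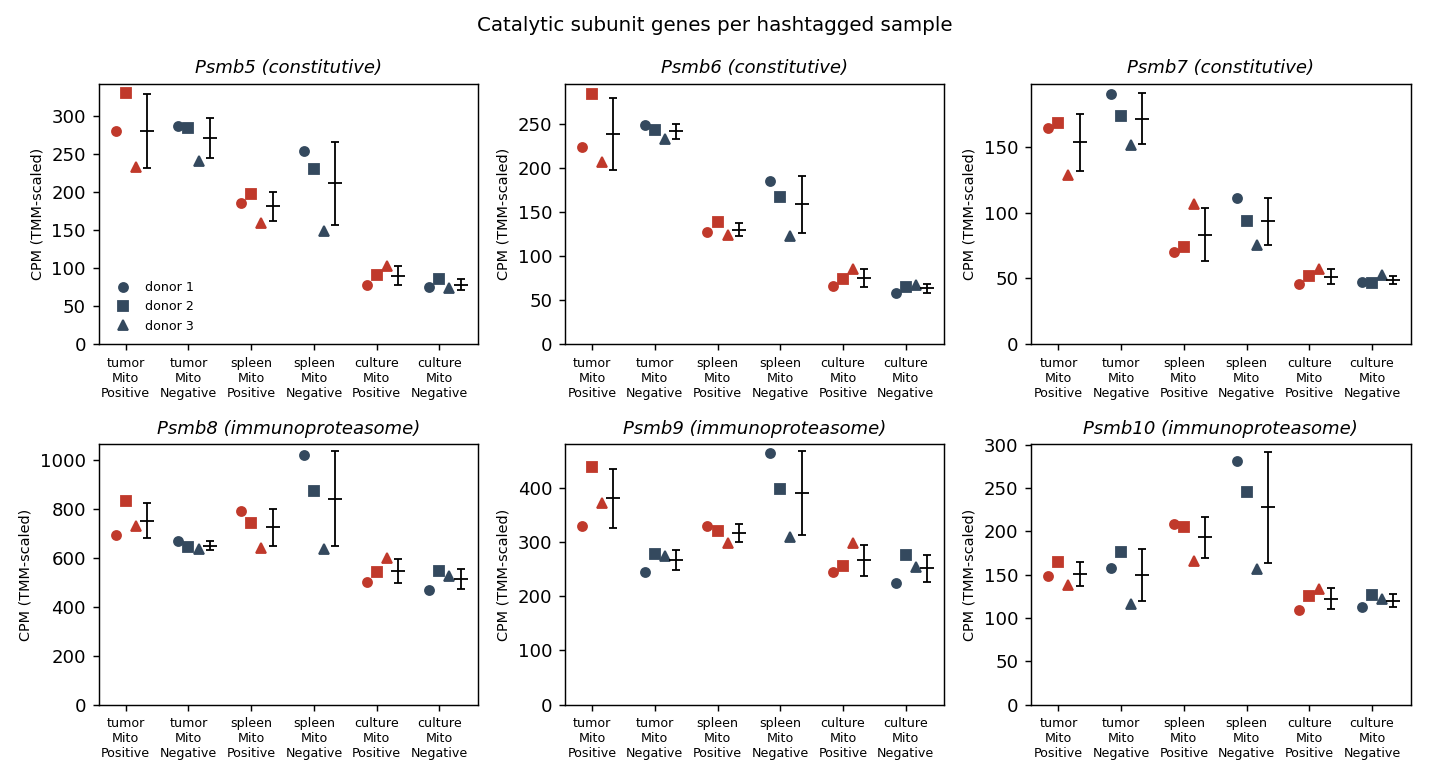
TMM-scaled CPM of the constitutive catalytic genes Psmb5, Psmb6 and Psmb7 (upper panels) and the immunoproteasome genes Psmb8, Psmb9 and Psmb10 (lower panels) in each sample; points are donors 1 to 3 and bars are mean ± SD. In the upper panels the mean of each tumor group stands above that of each spleen group and the culture samples are lowest, whereas in the lower panels tumor and spleen samples overlap.

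Other genes of the pathway moved less uniformly. Of 35 tested genes from a list of the immunoproteasome genes above, activators, assembly factors, 19S partners, ubiquitin shuttles, ubiquitin genes and regulators, 19 rose and 4 fell in the tumor in MitoPositive cells (median log2 fold change 0.37), and 12 rose and 5 fell in MitoNegative cells (median 0.25), where 53.2% of all genes were called in MitoPositive and 42.5% in MitoNegative cells. The genes that rose in both arms included the core assembly chaperone Psmg1 (1.04 ± 0.19 in MitoPositive and 0.77 ± 0.20 in MitoNegative cells, adjusted p = 0.000642 and 0.00859), the proteasome-bound deubiquitinase Usp14 (0.89 ± 0.14 and 0.75 ± 0.14, adjusted p = 0.000229 and 0.00126), the ubiquitin receptor Adrm1 (0.74 ± 0.15 and 0.65 ± 0.16, adjusted p = 0.00146 and 0.00583) and the unfoldase Vcp (0.68 ± 0.10 and 0.63 ± 0.10, adjusted p = 0.000176 and 0.000433). Of PA28, the activator that interferon gamma induces, Psme2 rose in MitoPositive cells (0.39 ± 0.14, adjusted p = 0.0329) and had 0.18 ± 0.14 (adjusted p = 0.314) in MitoNegative cells, and Psme1 was called in neither (0.09 ± 0.11 and -0.23 ± 0.11, adjusted p = 0.502 and 0.109). Among the regulators, Nfe2l1 was called in neither arm (0.19 ± 0.15, adjusted p = 0.325, and 0.36 ± 0.17, adjusted p = 0.114). Its processing enzyme Ngly1 fell in both, by 1.06 ± 0.17 in MitoPositive cells (adjusted p = 0.000292) and by 1.32 ± 0.20 in MitoNegative cells (adjusted p = 0.000279). Ddi2, the other processing enzyme named above, had 40.1 ± 4.53 CPM in MitoPositive tumor samples against 33.8 ± 6.62 in the spleen, with overlapping samples. In MitoNegative cells Ddi2 had 28.9 ± 12.2 CPM in the tumor against 27.5 ± 3.47 in the spleen.

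The arms were compared within each site to ask whether cells sorted as carrying BMSC mitochondria differ from those without. In the tumor none of the 35 proteasome genes was called between MitoPositive and MitoNegative cells, where 0.4% of all genes were called. Of the 35, 12 had a positive log2 fold change, the median was -0.02 against 0.07 over all genes, and 1 gene had an unadjusted p under 0.05. DESeq2, which called 1.43% of all genes, also called none of the 35. Psmd10 had the smallest p, with 38.2, 43.6 and 40.7 CPM in MitoPositive against 30.6, 22.3 and 35.2 in MitoNegative samples, groups that did not overlap (0.45 ± 0.18, adjusted p = 0.312). Psma5 came next, at -0.25 ± 0.13 (adjusted p = 0.434). The catalytic genes lay near 0, at 0.05 ± 0.13 for Psmb5, -0.03 ± 0.13 for Psmb6 and -0.15 ± 0.16 for Psmb7, as did Psmd4 at -0.11 ± 0.11 and Psmd14 at 0.04 ± 0.13 (adjusted p from 0.753 to 0.978 for these 5). Of the genes set beside them, Psmb9 had 0.51 ± 0.15 (adjusted p = 0.155), Psmb8 0.22 ± 0.13 (adjusted p = 0.521), Psmb10 0.04 ± 0.14 (adjusted p = 0.963), Psme1 0.09 ± 0.11 (adjusted p = 0.806) and Psme2 -0.19 ± 0.14 (adjusted p = 0.617). The cycling clusters defined above, cluster 2 among them, held 44.8 to 70.4% of MitoPositive and 20 to 66.4% of MitoNegative tumor cells. In MitoNegative tumor samples they held 11 of 30, 17 of 85 and 77 of 116 cells, so few cells remained without them. Leaving them out also changed which cell states were compared. Without these clusters 9 proteasome genes were called, all lower in MitoPositive cells, with Psma4 at -0.69. The median was then -0.37 against 0.04 over all genes, of which 10.1% were called.

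In the spleen all 35 fold changes of MitoPositive over MitoNegative cells were negative, with a median of -0.24 against 0.00 over all genes, and none was called. Of all genes 2.76% were called. Of the 35 genes, 11 had an unadjusted p under 0.05, and DESeq2, with 4.71% of all genes called, had Psma1, Psma4 and Psmc2 lower. Psma1 had 110.3, 116 and 82.8 CPM in MitoPositive against 176, 158 and 105 in MitoNegative samples, and it was lower in MitoPositive cells in each donor (-0.48 ± 0.13, adjusted p = 0.0774). The ATPase Psmc4 had 57.8, 68.5 and 50.3 CPM against 91.5, 83.4 and 60.2 (-0.40 ± 0.12, adjusted p = 0.106). The catalytic genes had -0.21 ± 0.13 for Psmb5, -0.29 ± 0.14 for Psmb6 and -0.30 ± 0.17 for Psmb7 (adjusted p = 0.488, 0.336 and 0.443), Psmd4 had -0.14 ± 0.11 and Psmd14 -0.23 ± 0.12 (adjusted p = 0.63 and 0.432). The immunoproteasome and PA28 genes were negative too, at -0.20 for Psmb8, -0.29 for Psmb9, -0.22 for Psmb10, -0.23 for Psme1 and -0.40 for Psme2, with adjusted p from 0.173 to 0.537. The summed ratio of MitoPositive to MitoNegative cells over the 37 genes was 0.742, 0.833 and 0.968, so that donor 3, whose MitoPositive sample held 49 cells, differed least. Without donor 3, 6 genes were called lower (7.48% of all genes called), and without donor 1 (0%) or donor 2 (0.653%) none. Left without the clusters that held RNA of other cell types, 6 genes were called lower (8.16% of all genes called): Psma1, Psma4, Psmb3, Psmc2, Psmc3ip and Psmc4.

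G2/M RNA was lower in MitoPositive than in MitoNegative spleen cells in donors 1 and 2 and higher in donor 3. The same G2/M genes summed to 279, 357 and 1571 CPM in MitoPositive and 1855, 997 and 1258 CPM in MitoNegative spleen samples. Without the clusters whose G2/M sum was over 10 times the day's median, the summed ratio of MitoPositive to MitoNegative proteasome RNA was 0.768, 0.860 and 0.991. Mean proteasome sums, left untested, were compared in the day 7 clusters where at least 2 samples of each spleen arm had 20 or more cells. In clusters 4, 6 and 9 the samples of the arms did not overlap. The means were 4179.6 CPM in MitoPositive against 4712 in MitoNegative cells in cluster 4, 2585 against 3055 in cluster 6 and 4277 against 5318 in cluster 9. In clusters 0, 1 and 7 the MitoPositive samples lay within the range of the MitoNegative ones. The means there were 4799 against 5122 in cluster 0, 3954 against 3974 in cluster 1 and 4045 against 4299 in cluster 7. Each MitoPositive mean is of 2 samples. In clusters 0, 1, 7 and 9 the MitoNegative mean is of 3, so the arms there do not hold the same donors.

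In the culture 34 of 35 fold changes of MitoPositive over MitoNegative cells were positive, with a median of 0.14 against -0.00 over all genes. None was called in the fit without a donor term, where 9.26% of all genes were called; 12 of the 35 had an unadjusted p under 0.05, and DESeq2, with 7.21% of all genes called, called none. With donor as a replicate block, and 20.1% of all genes called, 14 proteasome genes were called, 13 higher and Psmd5 lower. Psmb4, a structural beta subunit, had the smallest p, with 117, 131 and 149.9 CPM in MitoPositive against 99.9, 113.1 and 108 in MitoNegative samples. Its groups did not overlap, and the log2 fold change was 0.30 ± 0.09 (adjusted p = 0.0521 without the block and 0.000561 with it). Psmb3 had 154, 166 and 194 CPM in MitoPositive against 135, 147 and 144 in MitoNegative samples (0.26 ± 0.08, adjusted p = 0.0788 without the block and 0.00201 with it). The catalytic genes had smaller values in the fit without the block, 0.20 ± 0.10 for Psmb5 (adjusted p = 0.256), 0.23 ± 0.10 for Psmb6 (adjusted p = 0.184) and 0.07 ± 0.09 for Psmb7 (adjusted p = 0.715), while Psmd14 had 0.18 ± 0.08 (adjusted p = 0.155) and Psmd4 0.01 ± 0.07 (adjusted p = 0.956). Psmb8, Psmb9 and Psmb10 had 0.08, 0.07 and 0.02, and Psme1 and Psme2 had -0.11 and -0.03, with adjusted p from 0.484 to 0.935.

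The direction of the culture values rests on the hashtag map of the culture library. The design text and the deposited hashtag list give one map, used here, and the extraction protocol another; under the other map no gene of the 11436 tested was called (0%) and 6 of the 35 proteasome genes had a positive log2 fold change, with a median of -0.09. The G2/M genes summed to 676, 956 and 1078 CPM in MitoPositive and 235, 298 and 431 CPM in MitoNegative culture samples. Without the cycling cluster of the culture the summed proteasome ratio of MitoPositive to MitoNegative cells was 1.02, 1.01 and 1.08, where it was 1.05, 1.04 and 1.13 with all cells.

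**Figure D4:**
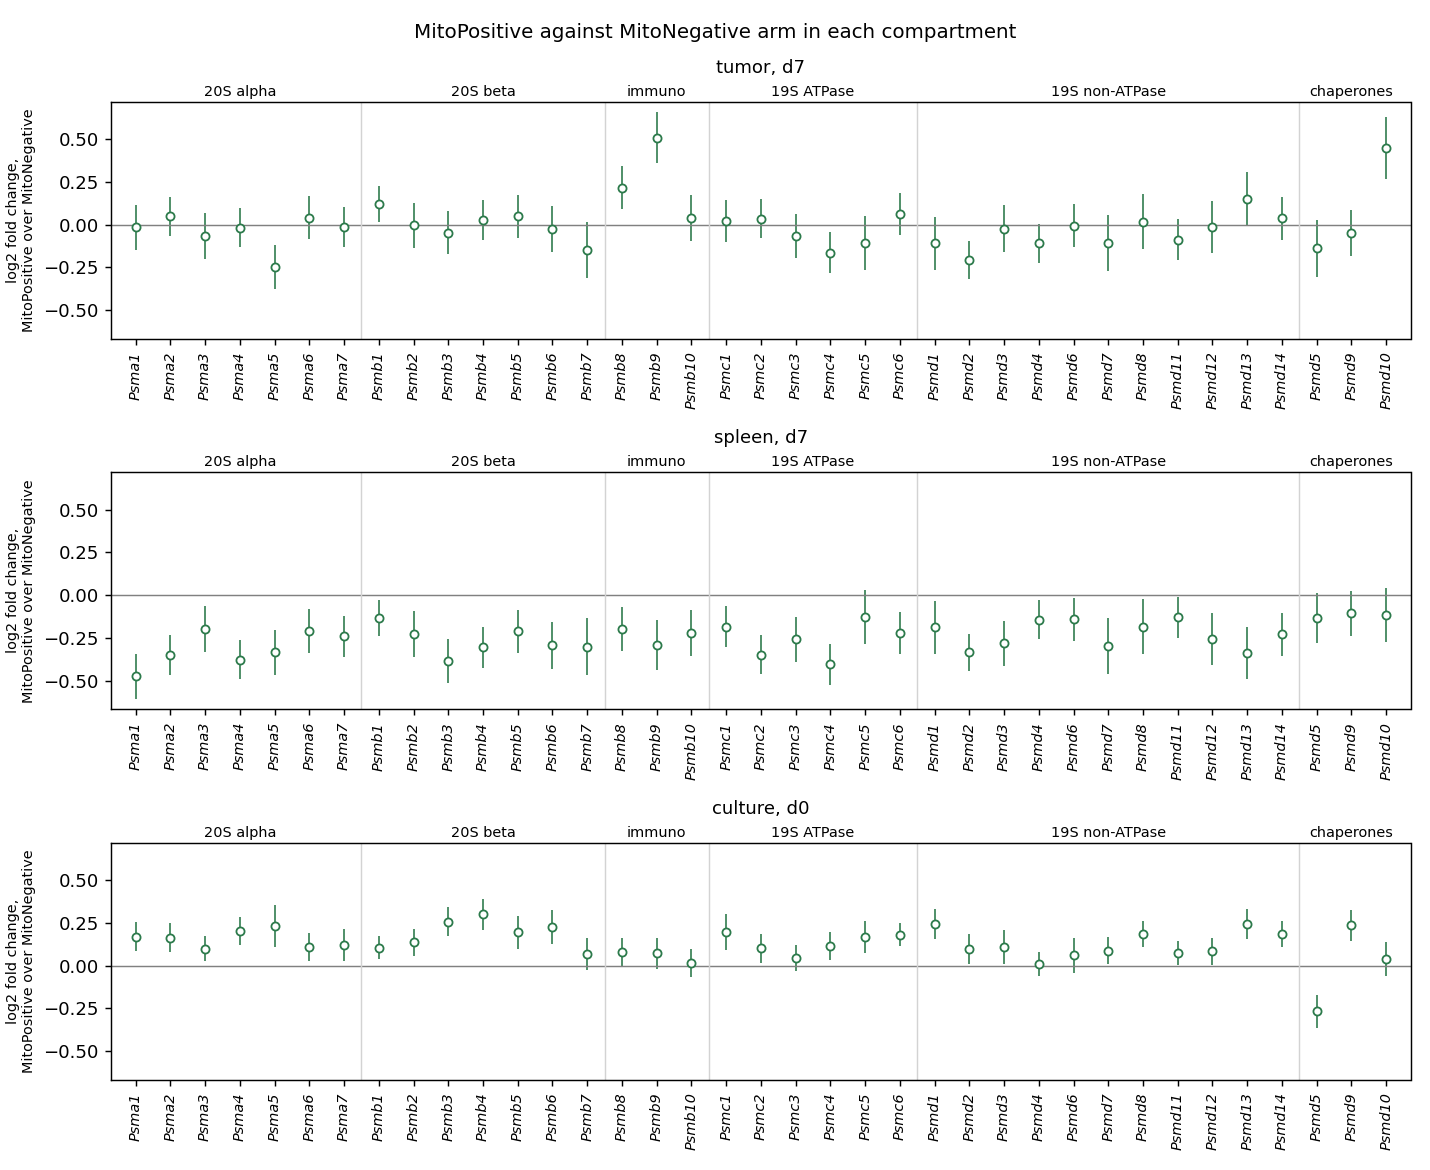
Log2 fold change of MitoPositive over MitoNegative cells (y axis, ± SE) of each tested proteasome gene and of Psmb8, Psmb9 and Psmb10 in the tumor, the spleen and the culture. Psmc3ip is left out. No point is filled, that is none had an adjusted p under 0.05 in these fits. The culture panel is of the fit without a donor block. With that block 14 of the 35 proteasome genes were called in the culture. The proteasome genes lie below 0 in the spleen, mostly above 0 in the culture and on both sides of it in the tumor.

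Whether the arm difference itself differed between settings was tested by the interaction term of the same fits. Between spleen on day 7 and culture it did for 10 of the 35 proteasome genes, all with a lower MitoPositive over MitoNegative ratio in the spleen, where 9.23% of all 12832 genes were called and 6.6% called lower. Over the 35 genes the median was -0.42, against -0.01 over all genes. The called genes were the alpha subunits Psma1 (-0.67 ± 0.16, adjusted p = 0.0126), Psma2 (-0.54 ± 0.15, adjusted p = 0.0329) and Psma4 (-0.61 ± 0.14, adjusted p = 0.0126), and the beta subunits Psmb3 (-0.68 ± 0.16, adjusted p = 0.0136) and Psmb4 (-0.64 ± 0.16, adjusted p = 0.0152). Of the 19S particle they were the ATPases Psmc2 (-0.49 ± 0.13, adjusted p = 0.0313) and Psmc4 (-0.54 ± 0.14, adjusted p = 0.0232) and the subunits Psmd2 (-0.46 ± 0.14, adjusted p = 0.0481) and Psmd13 (-0.60 ± 0.18, adjusted p = 0.0468), besides Psmc3ip (-2.18 ± 0.55, adjusted p = 0.0182). The catalytic genes were not among them, with -0.44 ± 0.17 for Psmb5 (adjusted p = 0.125), -0.55 ± 0.18 for Psmb6 (adjusted p = 0.0617) and -0.44 ± 0.19 for Psmb7 (adjusted p = 0.175). Psmd4 had -0.17 ± 0.13 (adjusted p = 0.462) and Psmd14 -0.45 ± 0.14 (adjusted p = 0.0619), and Psmb8, Psmb9, Psmb10, Psme1 and Psme2 lay between -0.15 and -0.40 with adjusted p from 0.161 to 0.603. This count was fragile: it was 0 without donor 1 (2.31% of all genes called), 1 without donor 2 (Psmc3ip; 2.39%) and 10 without donor 3 (9.56%). It was 1 with the HTODemux hashtag call (4.4%), 1 without the clusters of highest G2/M RNA (1.93%) and 0 with the other culture hashtag map (0.164%).

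Between tumor and spleen the arm difference of no proteasome gene passed, and 0% of all genes did. Of the 35, 34 had a positive value, with a median of 0.24 against 0.09 over all genes; scaled by DESeq2's size factors, 28 were positive with a median of 0.13 against -0.02. DESeq2, with 1.28% of all genes called, called none of the 35, and 6 had an unadjusted p under 0.05, with the smallest for Psma1 (0.46 ± 0.18, adjusted p = 0.297) and Psma2 (0.40 ± 0.16, adjusted p = 0.303). The catalytic genes had 0.26 ± 0.18 for Psmb5, 0.27 ± 0.19 for Psmb6 and 0.16 ± 0.23 for Psmb7, Psmd4 had 0.03 ± 0.16 and Psmd14 0.27 ± 0.18, with adjusted p from 0.57 to 0.985. Of the immunoproteasome Psmb9 had 0.80 ± 0.21 (adjusted p = 0.126), and Psmb8, Psmb10, Psme1 and Psme2 had 0.41, 0.26, 0.32 and 0.21, with adjusted p from 0.344 to 0.723. Between tumor and culture no proteasome gene passed either, where 0.857% of all genes did; the median was -0.19, 3 genes had an unadjusted p under 0.05, and DESeq2, with 2.19% of all genes called, called none. Psma5 (-0.50 ± 0.19, adjusted p = 0.215) and Psmd2 (-0.33 ± 0.14, adjusted p = 0.27) had the smallest p. Psmb5, Psmb6, Psmb7, Psmd4 and Psmd14 lay between -0.14 and -0.28, and Psmb8, Psmb9, Psmb10, Psme1 and Psme2 had 0.12, 0.41, 0.01, 0.18 and -0.18, none of them called. Without the cycling clusters defined above 10 were called, all lower, where 7.52% of all genes were.

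Day 7 was set against the culture within each arm, with all 18 samples in the fit; both comparisons of an arm share its culture samples. Day and library cannot be told apart here, since the culture is 1 library and day 7 the other 3. In tumor cells of day 7 nearly all proteasome genes stood above the culture: 35 of 35 rose in MitoPositive cells (70.4% of all genes called, 35.8% higher) and 33 of 35 in MitoNegative cells (65.5% called, 33.7% higher), all but Psmd5 and Psmd10. The medians were 1.15 and 1.33. The catalytic genes were among the largest changes. In MitoPositive cells Psmb6 rose by 1.67 ± 0.12 (adjusted p = 1.89e-09), given 65.5, 73.4 and 85.6 CPM in the culture beside the tumor values above, and Psmb5 by 1.63 and Psmb7 by 1.57. In MitoNegative cells Psmb6 rose by 1.94, Psmb7 by 1.81 and Psmb5 by 1.80, and the ATPase Psmc5 by 1.96. Other large changes were those of the alpha subunits Psma7 (1.46 in MitoPositive and 1.62 in MitoNegative cells) and Psma4 (1.30 and 1.54), the ATPase Psmc1 (1.32 and 1.52), the scaffold Psmd1 (1.29 and 1.68) and Psmc3ip (1.91 and 2.87). Psmd14 rose by 0.97 ± 0.10 in MitoPositive and 1.14 ± 0.11 in MitoNegative cells (adjusted p = 1.18e-07 and 7.58e-08), and Psmd4 by 0.27 ± 0.09 and 0.41 ± 0.10 (adjusted p = 0.0107 and 0.00113).

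In spleen cells of day 7 fewer proteasome genes stood above the culture in MitoPositive than in MitoNegative cells, a difference whose test is the interaction given above. MitoNegative cells had 31 of 35 genes higher and none lower (median 0.80, 60.4% of all genes called and 32.4% higher), and those not called were Psmc6, Psmd4, Psmd5 and Psmd9. MitoPositive cells had 16 higher and 2 lower (median 0.25, 44.5% of all genes called, 23% higher and 21.4% lower). The largest changes of MitoPositive cells were in Psmb5 (0.97), Psmc5 (0.84), Psmb6 (0.76) and Psma7 (0.70), and those of MitoNegative subunits in Psmb5 (1.41), Psmb6 (1.31), Psmb3 (1.30) and Psmc5 (1.19). Psmb7 rose by 0.50 ± 0.14 in MitoPositive and 0.93 ± 0.13 in MitoNegative cells (adjusted p = 0.0091 and 9.52e-06), and Psmd14 by 0.44 ± 0.11 and 0.89 ± 0.10 (adjusted p = 0.00266 and 7.92e-07). Psmd4 was called in neither arm, at -0.08 ± 0.09 (adjusted p = 0.529) and 0.10 ± 0.09 (adjusted p = 0.353). The ATPase Psmc6 fell in MitoPositive cells by 0.26 ± 0.10 (adjusted p = 0.0358) and the chaperone Psmd9 by 0.31 ± 0.11 (adjusted p = 0.0276). Neither was called lower with the HTODemux hashtag call, with no filter on low counts or with any of the 3 donors left out. Both had risen in the tumor against the spleen in that arm. The MitoPositive count of 18 was 9 without donor 1 (26.3% of all genes called), 8 without donor 2 (21%) and 28 without donor 3 (47.7%).

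Most of the comparisons with the culture called the immunoproteasome genes higher too, with smaller log2 fold changes in the tumor than Psmb5, Psmb6 and Psmb7. Psmb8 rose in all 4 comparisons with the culture, by 0.47 in MitoPositive and 0.35 in MitoNegative tumor cells and by 0.40 in MitoPositive and 0.70 in MitoNegative spleen cells. Psmb10 rose in all 4 as well, by 0.31 and 0.30 in the tumor and 0.63 and 0.89 in the spleen, MitoPositive before MitoNegative cells. Without the cycling clusters defined above, both had -0.04 in MitoNegative tumor cells. Psmb9 rose by 0.52 in MitoPositive tumor cells and by 0.63 in MitoNegative spleen cells, and had 0.10 (adjusted p = 0.526) in MitoNegative tumor cells and 0.24 (adjusted p = 0.151) in MitoPositive spleen cells. Without those clusters Psmb9 had -0.00 in MitoPositive and -0.61 in MitoNegative tumor cells. Psme2 rose by 1.32 in MitoPositive and 1.498 in MitoNegative tumor cells and by 0.89 and 1.29 in the same arms of the spleen, and Psme1 rose by 0.38 in MitoPositive tumor cells and 0.41 in MitoNegative spleen cells.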

How the data were processed

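The samples were profiled by Chromium 3' single-cell RNA-seq with antibody hashtags. The deposited matrices hold raw UMI counts per gene and barcode from Cell Ranger 7.0.0, per the file headers and the submitters' processing notes, which also name Seurat 4.0.5 and mm10; no deposited column was left unused for want of a sample. From these counts, barcodes with at least 500 genes and under 15% mitochondrial UMIs were kept, and a hashtag was called where the top one had at least 10 UMIs and 3 times the next. Cells were clustered per day with scanpy 1.11.5 and leidenalg 0.10.2 (2000 variable genes, 30 components, 15 neighbours, resolution 0.5; 6 clusters on day 0 and 13 on day 7), and 1 cluster of 28 barcodes was left out because under 50% of its cells had a UMI of Cd3d, Cd3e or Cd3g. Doublets with 2 hashtags went with the hashtag call; no other caller was run.

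Counts were summed per sample. After filterByExpr and TMM scaling, edgeR 4.0.16 (R 4.3.3) ran its quasi-likelihood test, with Benjamini-Hochberg adjustment over all genes tested and a threshold of 0.05: the 6 culture samples without a block (11436 genes), the 12 day 7 samples with the library, which is also the donor, as block (11992 genes), and all 18 with that block on day 7 (12832 genes). The SE is the log2 fold change over the root of its F. Same-numbered samples come from the same donor mouse, per the deposited hashtag list, so the donor number pairs them; their deviations from the group means correlated at 0.08 to 0.34 in the culture and -0.08 to 0.27 on day 7. DESeq2 1.42.0 and Seurat 5.3.0 (HTODemux at quantile 0.99) were used as alternatives. In the culture fit p-values measure the spread between the samples of an arm from 3 donors. In the fits with the block they measure the spread left after donor differences on day 7 are taken out. On day 7 the arms of a donor came from different recipients, so arm and recipient cannot be told apart within a donor. Tested on simulated data with known fold changes, the scripts called 87% of 2-fold changes between culture arms and 51% between tumor arms. For the arm difference, tumor minus spleen, they called 26%.

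The genes, the lists and the tests were chosen with earlier results of these data known. Named in every comparison were Psmb5, Psmb6, Psmb7, Psmd4, Psmd14, Psmb8, Psmb9, Psmb10, Psme1 and Psme2, with up to 10 called genes in each direction of largest change and the same sign in all 3 donors, or, where none was called, the 2 with the smallest p. The UMI depth per sample, in the report, limits the precision.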

Additional observations from a re-analysis of the deposited data

Results flagged for a closer look

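By the interaction term of the edgeR fit, the difference between MitoPositive and MitoNegative cells differed between the day 7 spleen and the culture in 10 proteasome genes. Each had a lower ratio in the spleen. Of all genes 9.23% were called and 6.6% called lower. The count of 10 fell to 0 without donor 1 (2.31% of all genes called) and to 1 without donor 2 (2.39%). It was 1 with the HTODemux hashtag call (4.4%) and 0 with the other culture hashtag map (0.164%). The log2 values, spleen minus culture, were -0.67 for Psma1, -0.54 for Psma2, -0.61 for Psma4, -0.68 for Psmb3, -0.64 for Psmb4, -0.49 for Psmc2, -0.54 for Psmc4, -0.46 for Psmd2, -0.60 for Psmd13 and -2.18 for Psmc3ip. Day and library cannot be told apart, and G2/M RNA was lower in MitoPositive than in MitoNegative spleen cells in donors 1 and 2 and higher in donor 3, and higher in MitoPositive culture cells in all 3 donors. Its part in the difference was not tested. Without the clusters of highest G2/M RNA, 1 gene (Psmb3) was called, where 1.93% of all genes were.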

How the results depend on the processing

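Counts of called proteasome genes were recomputed under each alternative, and those not named here stayed within 1.5 times the value in the report. The share of all genes called moved with the setting too, and a percentage beside a count is that share. For counts without a percentage it is not given here. Between culture arms (0 called, 9.26%) the count was 3 with no filter on low counts, 14 with donor as replicate block (20.1%), 6 without clusters of few UMIs, and 0 to 2 with a donor left out, the 2 without donor 1. Between tumor arms (0, 0.4%) it was 9 without cycling clusters (10.1%). Between spleen arms (0, 2.76%) it was 2 with no filter, 3 with DESeq2 (4.71%), 2 with thinned cells and 3 with spleen samples alone. It was 6 there without clusters holding other cell types (8.16%) and 0 to 6 with a donor left out (0 to 7.48%). For tumor against spleen in MitoNegative cells (26, 42.5%) it was 11 with thinned cells (23%). For the arm difference, tumor minus spleen (0, 0%), it was 1 with no filter. Spleen minus culture (10, 9.23%) gave 1 with HTODemux (4.4%), 4 without cycling clusters, 4 with thinned cells and 2 with no replicate block. It gave 0 with the other hashtag map (0.164%), 1 without strictly cycling clusters (1.93%) and 0 to 10 with a donor left out (2.31 to 9.56%). Tumor minus culture (0, 0.857%) gave 10 without cycling clusters (7.52%). MitoPositive spleen against culture (18, 44.5%) gave 8 to 28 with a donor left out (21 to 47.7%). The cause of each was not tested. The alternatives that leave out strictly cycling clusters, clusters of other cell types or clusters of few UMIs were chosen after seeing the data. HTODemux gave no hashtag to 51.7% of the barcodes of donor 1 on day 7. The 2 hashtag calls were the same for 34.9, 60.9 and 94.1% of the day 7 barcodes of donors 1, 2 and 3, and for 92.5% in the culture. Donor 1's MitoNegative spleen sample held 3423 cells in the report's call and 527 by HTODemux. Donor 1's MitoNegative tumor sample held 30 and 80 in the same order. Which call is right for these cells was not tested. With DESeq2's size factors the split of all genes called, higher against lower, was 11 and 28 between tumor arms (23 and 25 in the report's fit), 461 and 684 for spleen minus culture (337 and 847) and 40 and 67 for tumor minus culture (54 and 56).

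Single genes changed sign as follows, in log2 values. Between tumor arms: DESeq2 gave -0.033 for Psmb10, -0.031 for Psmb5 and -0.042 for Psmd14; its size factors -0.036, -0.028 and -0.037; tumor samples alone -0.036, -0.026 and -0.034 for the same 3. HTODemux gave -0.16 for Psmb10, -0.033 for Psmd14 and -0.077 for Psme1; thinned cells 0.093 for Psmb6 and -0.0085 for Psmd14. Leaving out other cell types gave -0.047 for Psmb5 and -0.037 for Psmd14; leaving out cycling clusters -0.52 for Psmb5, -0.20 for Psmd10, -0.21 for Psmd14 and -0.090 for Psme1. Between culture arms: HTODemux gave -0.0041 for Psmb10; thinned cells -0.11 for Psmb10 and -0.12 for Psmb9; clusters of few UMIs left out, 0.011 for Psme2. Leaving out cycling or strictly cycling clusters gave -0.0036 for Psmb10, -0.029 for Psmb7 and -0.021 for Psmb9. The other hashtag map gave -0.14 for Psmb10, -0.088 for Psmb3, -0.090 for Psmb4, -0.11 for Psmb5, -0.15 for Psmb6, -0.11 for Psmb7, -0.15 for Psmb8, -0.19 for Psmb9, -0.0022 for Psmd14 and -0.081 for Psmd4. For tumor minus spleen: Psmd4 was -0.088 with DESeq2, -0.077 with its size factors and -0.0086 with thinned cells. Without cycling clusters Psma1 was -0.097, Psmb5 -0.35, Psmb6 -0.32, Psmb7 -0.19, Psmd14 -0.032, Psmd4 -0.13 and Psme2 -0.18. For tumor minus culture: Psmb10 was -0.032 with DESeq2, -0.035 with size factors, -0.088 with HTODemux, -0.0096 without other cell types and -0.012 without strictly cycling clusters. Thinned cells gave 0.060 for Psme2, and the other map 0.15 for Psmb5, 0.12 for Psmb6 and 0.033 for Psmd14. For MitoPositive tumor against spleen, Psmb8 was -0.064 with thinned cells and -0.36 without cycling clusters, where Psmb9 was -0.31. Against the culture, Psmb9 in MitoNegative tumor cells was -0.16 thinned, -0.076 with no filter, -0.035 with the other map, -0.042 without clusters of few UMIs and -0.61 without cycling clusters. Without cycling clusters Psmb10 was -0.042 and Psmb8 -0.044 there, and Psmb9 -0.0012 in MitoPositive tumor cells. Psmd4 in MitoNegative spleen cells was -0.00030 without clusters of few UMIs.

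With a donor left out, signs changed within these ranges: between tumor arms Psmb5 -0.12 to 0.076, Psmb6 -0.24 to 0.034, Psmb10 -0.11 to 0.079, Psmd14 -0.0097 to 0.0045 and Psme1 -0.029 to 0.12. Between culture arms Psmb9 ran -0.016 to 0.17, Psmb10 -0.044 to 0.042, Psmd4 -0.032 to 0.038 and Psme2 -0.083 to 0.0022. For tumor minus spleen Psmb7 ran -0.086 to 0.32 and Psmd4 -0.063 to 0.060, and for tumor minus culture Psmb5 -0.30 to 0.044 and Psmb10 -0.052 to 0.072. Psmb8 in MitoPositive tumor against spleen ran -0.052 to 0.16, and Psmd4 in spleen against culture -0.20 to 0.0081 in MitoPositive and -0.085 to 0.17 in MitoNegative cells.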
